A study of Mus musculus with 2 samples.

Results

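The insulin-like growth factor (IGF) and insulin receptors, their docking substrates and the IGF binding proteins were followed as 10 genes in sorted luminal cells of the mouse mammary gland. The genes are the receptors Igf1r, Igf2r and Insr, the substrates Irs1 and Irs2, and the binding proteins Igfbp2, Igfbp3, Igfbp4, Igfbp5 and Igfbp7. They were chosen by symbol, and all 10 were found among the 16906 genes of the deposited table. The CKO library came from mice with K8-CreERT2 and floxed miR-200c and miR-141, in which a tamoxifen-dependent Cre driven by the keratin 8 promoter deletes the microRNA cluster in luminal cells. The Ctrl library came from mice with the same floxed alleles and no Cre. Per the labels both groups were C57BL/6, aged 8 weeks and given tamoxifen, and about 20000 luminal cells were sorted for total RNA. The labels place collection at 4 weeks after tamoxifen in 1 field and at 3 days in another. There was 1 library per group, and how many mice each holds is not given, so no difference below was checked against the spread between animals, and the presence of Cre cannot be told apart from the deletion.

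IGF1 and insulin bind the tyrosine kinase receptors encoded by Igf1r and Insr, which phosphorylate the docking proteins IRS1 and IRS2 and through them switch on PI3-kinase, AKT and mTOR. IGF2R has no kinase domain and carries IGF2 to the lysosome for breakdown. The binding proteins hold IGFs outside the cell, and in the mammary gland IGFBP5 is best known for its rise during involution. MicroRNAs lower the output of messenger RNAs that match their seed, which is bases 2 to 8 of the mature microRNA.

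The sequences of the deleted microRNAs are shown because their seeds define the matches sought in the 10 genes. They come from RefSeq (GRCm38.p6), lie on the minus strand of chromosome 6, and are printed 5′ to 3′ with the seed in capitals. The seeds are not the same: miR-200c-3p pairs with the 7-mer CAGTATT in a target. The 7-mer that miR-141-3p pairs with is CAGTGTT. The microRNAs themselves were not analysed here.
mmu-miR-200c-3p: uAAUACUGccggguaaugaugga
mmu-miR-141-3p: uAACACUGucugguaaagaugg

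In the longest annotated 3′ untranslated region (UTR) of each gene (GENCODE M21, GRCm38), read on the transcript strand, 4 of the 10 genes held a match and 6 held none. Among 11154 measured genes with a 3′ UTR of at least 30 bases, 30.1% held a match to either, 15.4% the miR-200c-3p 7-mer and 20.8% the miR-141-3p 7-mer. Irs2 held 4 miR-141-3p matches in 2329 bases. Of the 1634 measured genes with a UTR within 20% of that length, Irs2 included, 0.122% held at least as many. For matches to either microRNA the share with at least 4 was 0.796%. Igf2r held 1 miR-200c-3p and 2 miR-141-3p matches in 1304 bases. Of 1634 genes of like UTR length, Igf2r included, 0.796% held at least as many in sum and 1.77% at least 2 miR-141-3p matches. Irs1 held 1 miR-141-3p match in 4525 bases, where 52.1% of genes of like length held at least 1 and 65.7% held a match to either. Igfbp4 held 1 in 2813 bases, where these shares were 37.5% and 54.2%. The UTR of Igf1r, at 7267 bases, held no match, although 83.0% of measured genes of like length did, and the UTRs of Insr (4747 bases) and Igfbp5 (4445 bases) held none either. The UTRs of Igfbp3 (1435 bases), Igfbp2 (312) and Igfbp7 (240) also held none. A match is a run of letters and was not tested as a site.

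The windows around the matches in Irs2 and Igf2r are shown because these genes carry more than 1, with the 7-mer in capitals. All lie on the minus strand in the last exon, exon 2 of 2 of Irs2 on chromosome 8 and exon 48 of 48 of Igf2r on chromosome 17, and the coordinates are those of the 7-mer on GRCm38. The first pair in Irs2 lies at chr8:10985889-10985895 and chr8:10985872-10985878, so that their windows overlap. The others lie at chr8:10985326-10985332 and chr8:10984927-10984933. The miR-200c-3p match of Igf2r is at chr17:12683133-12683139 and its miR-141-3p matches are at chr17:12682722-12682728 and chr17:12682705-12682711.
Irs2, miR-141-3p match 1: tggttctgttgtCAGTGTTctggaaatgtc
Irs2, miR-141-3p match 2: ttctggaaatgtCAGTGTTgtggaactgtt
Irs2, miR-141-3p match 3: ggaaatcttctcCAGTGTTgatgaggaacc
Irs2, miR-141-3p match 4: acagttattaaaCAGTGTTttctttgggta
Igf2r, miR-200c-3p match: cttagtgagctgCAGTATTctattcttcgc
Igf2r, miR-141-3p match 1: aacgcggtgggcCAGTGTTggtgtagggcc
Igf2r, miR-141-3p match 2: ttggtgtagggcCAGTGTTggtgtaggggc

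The single matches of Irs1 and Igfbp4 are shown for comparison. That of Irs1 lies at chr1:82235788-82235794 on the minus strand, in exon 2 of 2. That of Igfbp4 lies at chr11:99053039-99053045 on the plus strand, in exon 4 of 4 of the GENCODE transcript, and beyond position 99052655, where the RefSeq gene model ends.
Irs1, miR-141-3p match: atgtacaatgttCAGTGTTgcagatcttaa
Igfbp4, miR-141-3p match: gccccacagcgcCAGTGTTtctgttcttga

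Expression is given as the deposited FPKM (sequenced fragments divided by transcript length and library size), which allows levels of different genes to be compared. About 11420000 reads lay behind the CKO values and 12480000 behind the Ctrl values, as recovered from the authors' p-values. Log2 ratios are CKO over Ctrl with 0.5 FPKM added. A gene was counted at 2-fold when its higher library held at least 5 FPKM, and at 1.5-fold when its mean was at least 1 FPKM and the 95% exact (Clopper-Pearson) interval of the read ratio left out a ratio of 1. These intervals, and the Poisson intervals of levels, address counting error only and take reads without the added 0.5. Copies made by PCR are not independent molecules, so the intervals can be too narrow even for that error.

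The largest differences were all among the binding proteins: Igfbp3 was 2.58-fold higher in the CKO library, Igfbp7 was 1.44-fold higher, Igfbp2 was 1.88-fold higher on few reads, and Igfbp5 was 1.42-fold lower. The receptors and substrates ran from 0.844 of the Ctrl level (Irs2) to 1.11 times it (Igf1r), and the differences of Igf1r and Insr were not detectable at this depth. All 10 genes had a mean of at least 1 FPKM, and 7 held at least 5 FPKM in the higher library, which Igf1r, Igfbp2 and Igfbp4 did not. Of those 7, 1 was counted as 2-fold higher (Igfbp3) and 0 as lower, where 0.654% of the 8870 genes at that level were called 2-fold higher and 0.349% lower. At 1.5-fold 2 of the 10 were higher (Igfbp3 and Igfbp2; only Igfbp3 with the reads that the deposited p-values imply) and 0 lower, where 2.29% of 11667 genes were called higher and 3.04% lower. The interval left out a ratio of 1 at any fold for 3 genes on the CKO side and 4 on the Ctrl side, where 16.5% and 23.6% of all measured genes did. The median log2 ratio of the 10 genes was 0.01, against -0.03 over all measured genes.

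**Figure D1:**
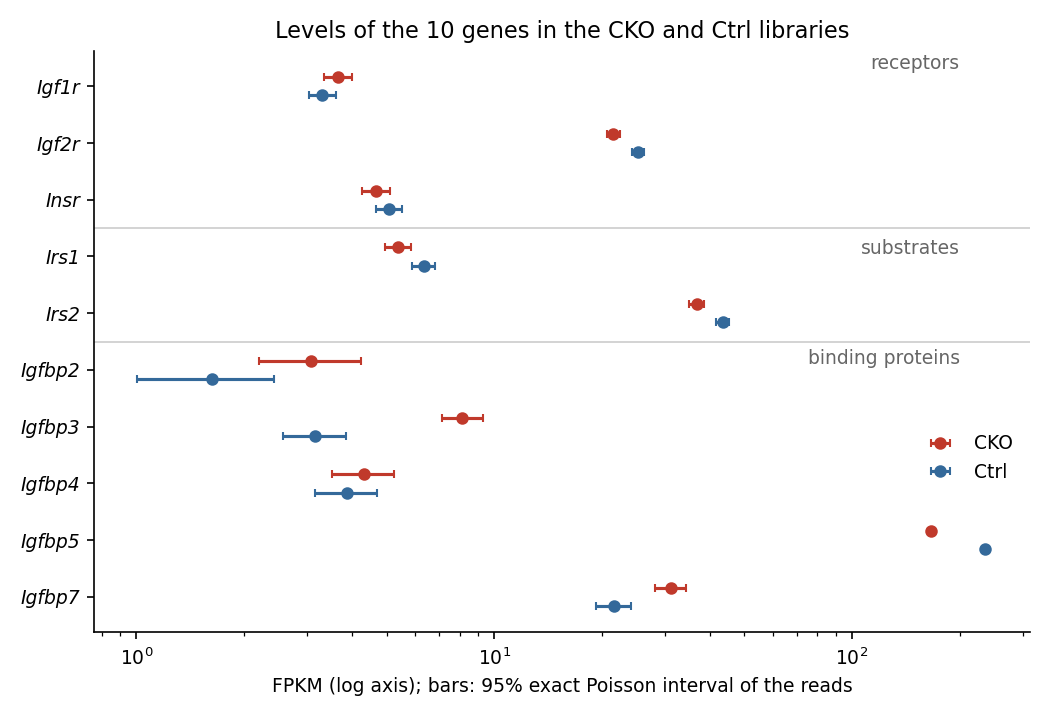
FPKM of each gene (log axis) in the CKO and Ctrl libraries, with 95% exact Poisson intervals of the reads as bars, 1 library per group. Igfbp5 is the highest gene in both libraries, at 166.12 FPKM in CKO and 235.1 in Ctrl, and the intervals of Igf1r, Insr, Igfbp2 and Igfbp4 overlap between the libraries.

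**Figure D2:**
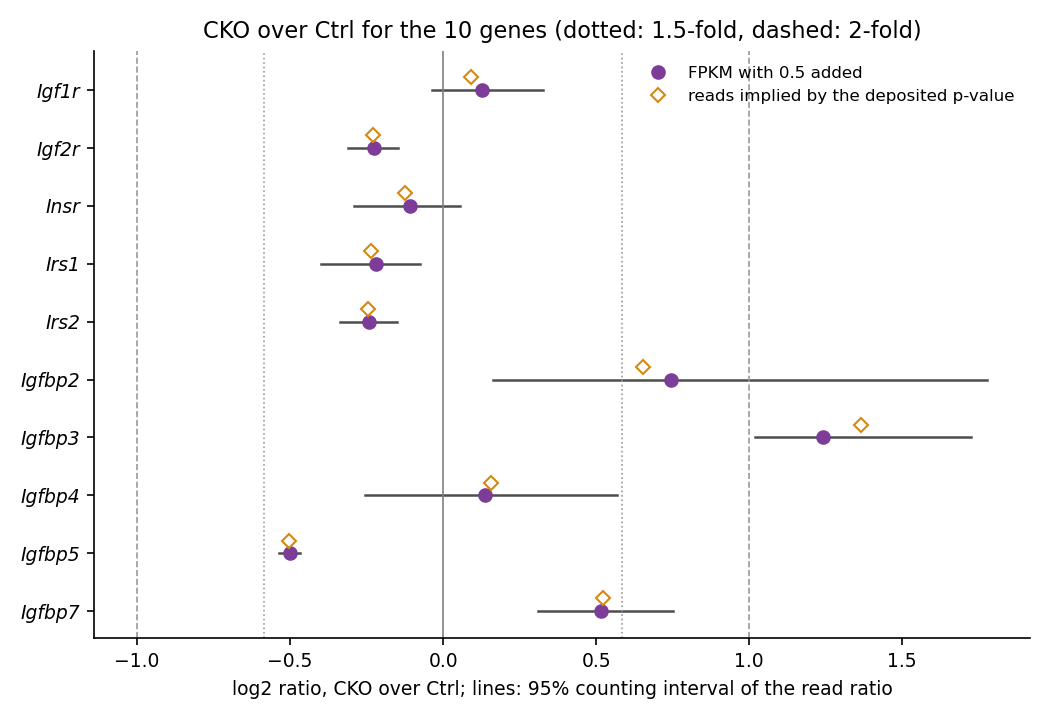
Log2 ratio of CKO over Ctrl for each gene (filled points, FPKM with 0.5 added), the 95% counting interval of the read ratio (lines), and the read ratio that the deposited p-value implies (open diamonds). Igfbp3 lies beyond the 2-fold line, and the open diamond of Igfbp2, which has nothing added, stands at 0.65, where its filled point stands at 0.75.

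Of the receptors, Igf2r was the highest. Igf2r (chromosome 17, 12682406 to 12769706) stood at 21.5 FPKM in CKO (20.6 to 22.4) and 25.2 in Ctrl (24.3 to 26.1), and the intervals were apart. About 2198 reads in CKO and 2814 in Ctrl gave a log2 ratio of -0.22 (counting interval -0.31 to -0.15). Igf2r was 1.17-fold lower in the CKO library, a difference inside the 1.5-fold bound. The antisense RNA gene Airn overlaps Igf2r in the annotation, and whether strand was used in counting is not given in the sources used here.

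The kinase receptors were expressed at lower and similar levels. Igf1r (chromosome 7, 67952257 to 68233668) stood at 3.66 FPKM in CKO (3.35 to 4.00) and 3.31 in Ctrl (3.03 to 3.62), a log2 ratio of 0.13 (interval -0.04 to 0.33). Insr (chromosome 8, 3150922 to 3279649) stood at 4.68 FPKM in CKO (4.28 to 5.11) and 5.08 in Ctrl (4.68 to 5.51), a log2 ratio of -0.11 (interval -0.29 to 0.06). Both intervals hold a ratio of 1, so no difference was detectable at this depth. The summed FPKM of Igf1r and Insr was 8.34 in CKO and 8.39 in Ctrl, and Insr made up 56.1% of that sum in CKO and 60.5% in Ctrl. Igf2r was 5.87-fold above Igf1r in CKO and 7.61-fold in Ctrl.

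Of the substrates, Irs2 was far above Irs1. Irs2 (chromosome 8, 10984681 to 11008929) stood at 36.75 FPKM in CKO (35.02 to 38.55) and 43.53 in Ctrl (41.7 to 45.4), and was the second highest of the 10 genes in both libraries. Its log2 ratio was -0.24 (interval -0.34 to -0.15), or 1.18-fold lower in CKO. Irs1 (chromosome 1, 82233105 to 82291439) stood at 5.39 FPKM in CKO (4.95 to 5.85) and 6.35 in Ctrl (5.90 to 6.83), a log2 ratio of -0.22 (interval -0.40 to -0.08). The substrates were lower by nearly the same factor, so that the ratio of Irs2 to Irs1 was 6.82 in CKO and 6.86 in Ctrl. Of the 4 genes whose UTR held a seed match, Igf2r, Irs1 and Irs2 were lower in the CKO library, while the interval of Igfbp4 held a ratio of 1. Over all measured genes, with or without a match, 23.6% had an interval on the lower side. Igfbp5, whose UTR held none, was lower as well. Of the others without a match, Igfbp3, Igfbp7 and, on few reads, Igfbp2 were higher, and the intervals of Igf1r and Insr held a ratio of 1. A link between matches and ratios was not tested.

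Igfbp3, whose product is the main IGF carrier in blood, gave the highest ratio. Igfbp3 (chromosome 11, 7206086 to 7215498) stood at 8.15 FPKM in CKO (7.14 to 9.29) and 3.16 in Ctrl (2.57 to 3.86), and the intervals were far apart. Its log2 ratio was 1.24 (interval 1.02 to 1.72). The reads were 229 in CKO and 97 in Ctrl, the only pair near the FPKM values whose test gives the deposited p-value. Among measured genes, 0.557% had a log2 ratio as high or higher. By level among the 10 genes Igfbp3 was the fifth in CKO and the ninth in Ctrl.

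Igfbp5 was the most abundant of the 10 genes and was lower in the CKO library. Igfbp5 (chromosome 1, 72858065 to 72874865) stood at 166.12 FPKM in CKO (163.0 to 169.2) and 235.1 in Ctrl (231.6 to 238.6), from about 11110 and 17176 reads. Among all genes its rank by FPKM was 394 in CKO and 255 in Ctrl. Its log2 ratio was -0.50 (interval -0.54 to -0.47), short of 1.5-fold, and 4.76% of measured genes had a ratio as low or lower. In FPKM the CKO value was lower by 68.98, and 16 genes of the table, Igfbp5 included, had a difference at least as large in that direction.

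Igfbp7, whose product binds IGFs weakly and is abundant in vessel walls, was higher in CKO. Igfbp7 (chromosome 5, 77349240 to 77408045) stood at 31.19 FPKM in CKO (28.2 to 34.4) and 21.64 in Ctrl (19.2 to 24.2), with a log2 ratio of 0.52 (interval 0.31 to 0.75). In the order of levels it stood above Igf2r in CKO and below it in Ctrl, and in each library the interval of Igfbp7 was apart from that of Igf2r. Its gene model overlaps the end of Polr2b, a subunit gene of RNA polymerase II, which stood at 11.96 FPKM in CKO and 13.29 in Ctrl.

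Igfbp4 and Igfbp2 were low. Igfbp4 (chromosome 11, 99040005 to 99052655), an inhibitor of IGF action, stood at 4.32 FPKM in CKO (3.52 to 5.24) and 3.88 in Ctrl (3.15 to 4.71). Its 102 reads in CKO and 100 in Ctrl gave a log2 ratio of 0.14 (interval -0.26 to 0.57), which holds a ratio of 1. Igfbp2 (chromosome 1, 72824480 to 72852474) stood at 3.07 FPKM in CKO (2.20 to 4.24) and 1.63 in Ctrl (1.003 to 2.424), with about 39 and 22 reads. Its log2 ratio was 0.75 (interval 0.16 to 1.78), and the Poisson intervals of the levels overlap.

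For Igfbp2 the FPKM and the authors' own test of the reads differ. The authors' deposited table gives Igfbp2 a p-value of 0.0863 between the libraries, while the FPKM-based reads give 0.0118 by the same formula. At the same total the deposited p-value implies about 36 reads in CKO and 25 in Ctrl, a log2 ratio of 0.65 (interval -0.12 to 1.45, which holds a ratio of 1), where the log2 FPKM ratio with nothing added was 0.91. The cause of this gap was not tested. For the other 9 genes the implied log2 ratio lay within 0.1 of the log2 FPKM ratio with nothing added. The largest gap among these 9 was that of Igf1r, at an implied 0.093 against 0.145.

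The authors' deposited table calls Igfbp3 up, with a false discovery rate of 1.1e-14, and calls none of the other 9 genes up or down, where 0.615% of the 16906 genes are called up and 0.639% down. In the authors' deposited table the false discovery rate of Igfbp5 is 1.88e-180, that of Igf2r 4.53e-07, that of Irs2 3.01e-06 and that of Igfbp7 2.5e-05. Those of Irs1 and Insr in the authors' deposited table are 0.0198 and 0.365. The authors' deposited table gives 0.521 for Igf1r, 0.236 for Igfbp2 and 0.666 for Igfbp4. These values compare the reads of 1 library with those of another, not the conditions. Igfbp5, the gene with the most reads of the 10, has the lowest at a 1.42-fold difference.

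**Figure D3:**
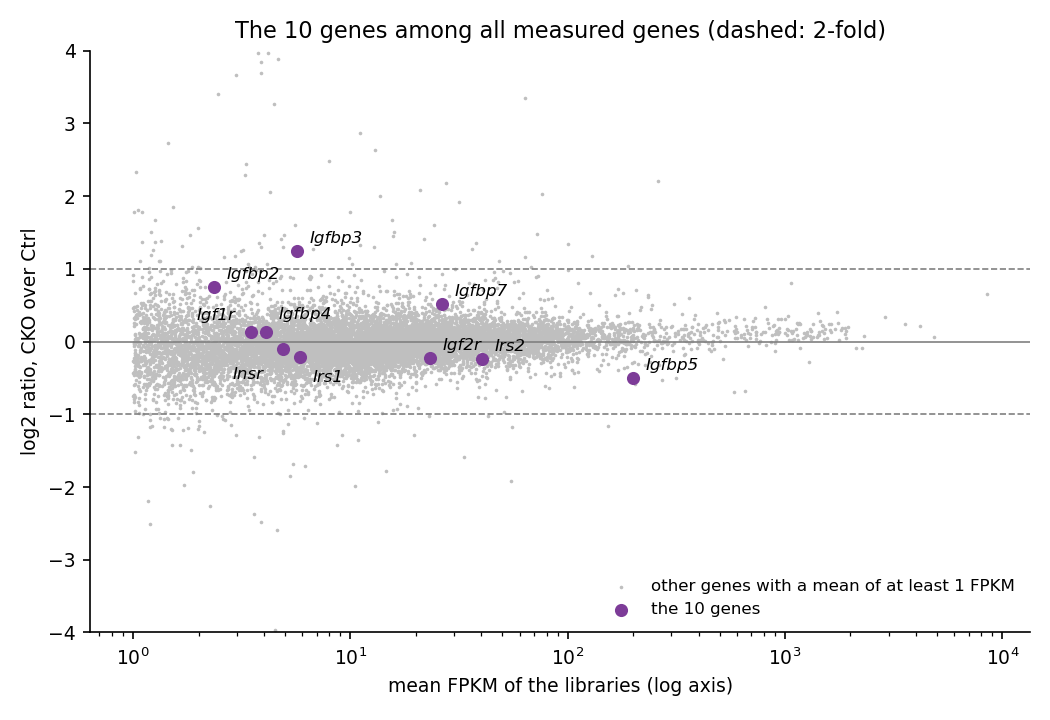
Log2 ratio of CKO over Ctrl against the mean FPKM (log axis) for every gene with a mean of at least 1 FPKM, with the 10 genes in colour and the 2-fold lines dashed. Igfbp3 is the only one of the 10 outside the dashed lines, and 9 measured genes beyond a log2 ratio of 4 either way are not drawn.

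Neighbouring binding protein genes had log2 ratios of opposite sign. Igfbp2 and Igfbp5 lie next to each other on chromosome 1 with 5591 bases between them, Igfbp2 at a log2 ratio of 0.75 and Igfbp5 at -0.50. The ratio of Igfbp2 rests on few reads. With the reads that the deposited p-value implies, its interval of -0.12 to 1.45 holds a ratio of 1. Igfbp1 lies 3540 bases from Igfbp3 and is not listed in the table.

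The makeup of the binding proteins was different in the libraries. Summed over Igfbp2 to Igfbp7 the 6 genes held 213.66 FPKM in CKO and 266.59 in Ctrl, a ratio of 0.801. Igfbp5 made up 77.7% of the sum in CKO and 88.2% in Ctrl. Igfbp7 made up 14.6% in CKO and 8.12% in Ctrl, and Igfbp3 3.81% in CKO and 1.19% in Ctrl. Without Igfbp5 the sum was 47.54 FPKM in CKO and 31.49 in Ctrl, so it ran the other way at a ratio of 1.51. The ratio of Igfbp5 to Igfbp3 was 20.4 in CKO and 74.4 in Ctrl. Igfbp6, the remaining gene of the sum, whose product prefers IGF2, stood at 0.81 FPKM in CKO and 1.18 in Ctrl, with 12 and 19 reads and an interval of -1.71 to 0.58 that holds a ratio of 1.

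**Figure D4:**
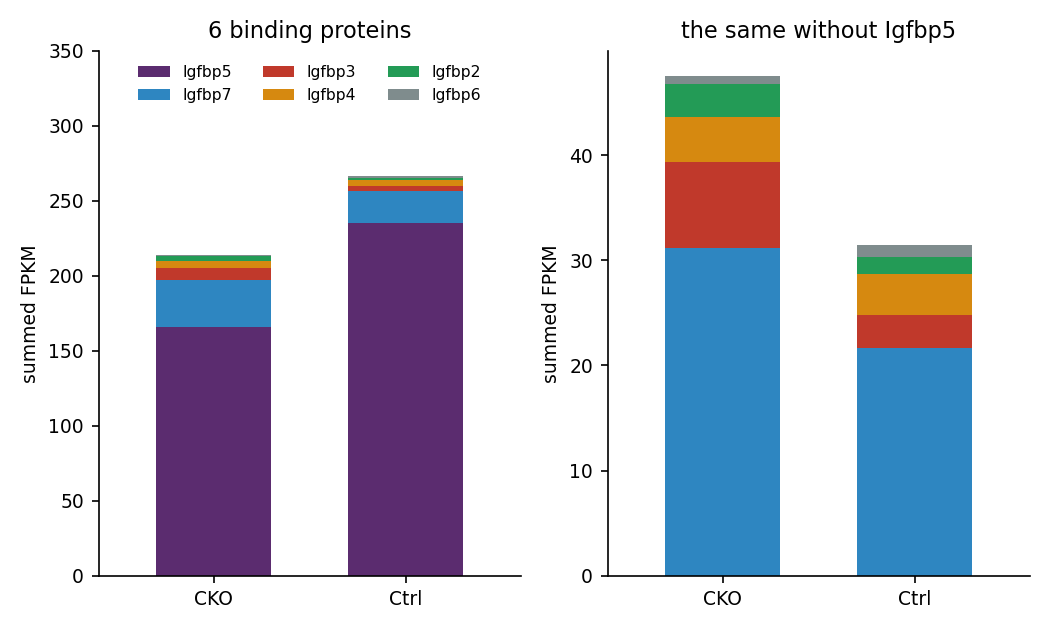
Summed FPKM of the 6 IGF binding protein genes (left) and of the same without Igfbp5 (right), 1 bar for each library, CKO then Ctrl. The full bars reach 213.66 and 266.59 FPKM, and without Igfbp5 they reach 47.54 and 31.49 FPKM.

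The order of levels was otherwise close in the libraries. In CKO it ran Igfbp5, Irs2, Igfbp7, Igf2r, Igfbp3, Irs1, Insr, Igfbp4, Igf1r and Igfbp2, and the Poisson intervals of neighbours overlapped from Irs1 downward. In Ctrl it ran Igfbp5, Irs2, Igf2r, Igfbp7, Irs1, Insr, Igfbp4, Igf1r, Igfbp3 and Igfbp2, and those of neighbours overlapped from Insr to Igfbp3.

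Ligand RNA was scarce in these cells. Igf1, whose product in the mammary gland comes mainly from stroma, stood at 0.05 FPKM in CKO and 0.08 in Ctrl, with 4 and 7 reads. Igf2 stood at 1.15 FPKM in CKO and 1.26 in Ctrl, a log2 ratio of -0.09 (interval -0.72 to 0.46), and Ins1 and Ins2 are not listed. Of 4 ligand genes 1 was thus measured, with 0 higher and 0 lower. Igfals, which encodes the acid-labile subunit that carries IGF with IGFBP3 in blood, was the only measured gene of the list of other binding proteins and their carrier, at 3.65 FPKM in CKO and 5.67 in Ctrl. Its log2 ratio of -0.57 (-1.03 to -0.25) was short of 1.5-fold on this scale.

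The wider pathway was close to level. Of 89 listed genes outside the 10, 71 were measured, and 1 was counted as 1.5-fold higher (1.41%) and 4 as lower (5.63%), against the 2.29% and 3.04% of all genes. None of the 71 reached 2-fold, and their median log2 ratio was -0.07. With a pseudocount of 1 FPKM 0 were higher and 2 lower, with trimmed mean scaling 2 were lower, and with a pseudocount of 0.1 FPKM 5 were lower. The lists were chosen with earlier results of these data known.

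Among 6 measured genes of other proteins with an IGFBP domain 0 were higher and 2 lower, and the median log2 ratio was -0.13. The lower genes were the protease gene Htra3, at 1.38 FPKM in CKO and 2.34 in Ctrl, and Kazald1, at 1.28 FPKM in CKO and 2.21 in Ctrl. The matricellular genes Ctgf and Cyr61 had log2 ratios of 0.49 and 0.34. Of 5 measured genes of proteases that cut IGFBPs and their inhibitors 1 was higher and 0 lower, and the median was -0.02. The higher gene was the gelatinase gene Mmp2, at 6.71 FPKM in CKO and 4.28 in Ctrl. The log2 ratio of Stc2, a pappalysin inhibitor gene, was -0.32, and those of the protease genes Adamts1 and Htra1 were 0.14 and -0.21. Pappa, the gene of the main IGFBP4 protease, stood at 0.2 FPKM in CKO and 0.25 in Ctrl.

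The median of 10 measured adaptor genes was -0.03, with 0 of them higher and 0 lower. The adaptor genes Sh2b2 and Shc1 had log2 ratios of -0.52 and 0.23, the RAS exchange factor gene Sos1 -0.29 and the receptor inhibitor gene Grb10 -0.26. Of 20 genes of PI3K, AKT and mTOR 0 passed, and the median was -0.11, against -0.03 over all measured genes. The mTOR complex gene Rictor had a log2 ratio of -0.40, and the kinase genes Gsk3b and Akt1 -0.28 and 0.25. Of 9 RAS and MAPK genes 0 passed, and the median was 0.03. The kinase genes Braf and Map2k2 had log2 ratios of -0.24 and 0.11, and the GTPase genes Hras and Nras -0.10 and -0.08.

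Of 8 genes of receptor phosphatases and feedback inhibitors 0 passed, and the median was -0.04. The lipid phosphatase gene Inppl1 had a log2 ratio of -0.35, the receptor phosphatase gene Ptprf -0.25, and the cytokine feedback genes Socs2 and Socs3 -0.30 and -0.09. Of 11 genes of FOXO factors, which insulin signalling keeps out of the nucleus, and their targets, 0 were higher and 2 lower, and the median was -0.18. Foxo3, a FOXO transcription factor gene, stood at 30.52 FPKM in CKO and 47.4 in Ctrl, a log2 ratio of -0.63 (-0.71 to -0.56). Sesn3, a stress-induced sestrin gene, stood at 7.67 FPKM in CKO and 14.13 in Ctrl, a log2 ratio of -0.84 (-1.14 to -0.63). Gadd45a and Cited2 had log2 ratios of -0.39 and 0.33. Of the IGF2 mRNA binding proteins only Igf2bp2 was measured, at a log2 ratio of 0.08, with 0 higher and 0 lower, and H19 is not listed.

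**Figure D5:**
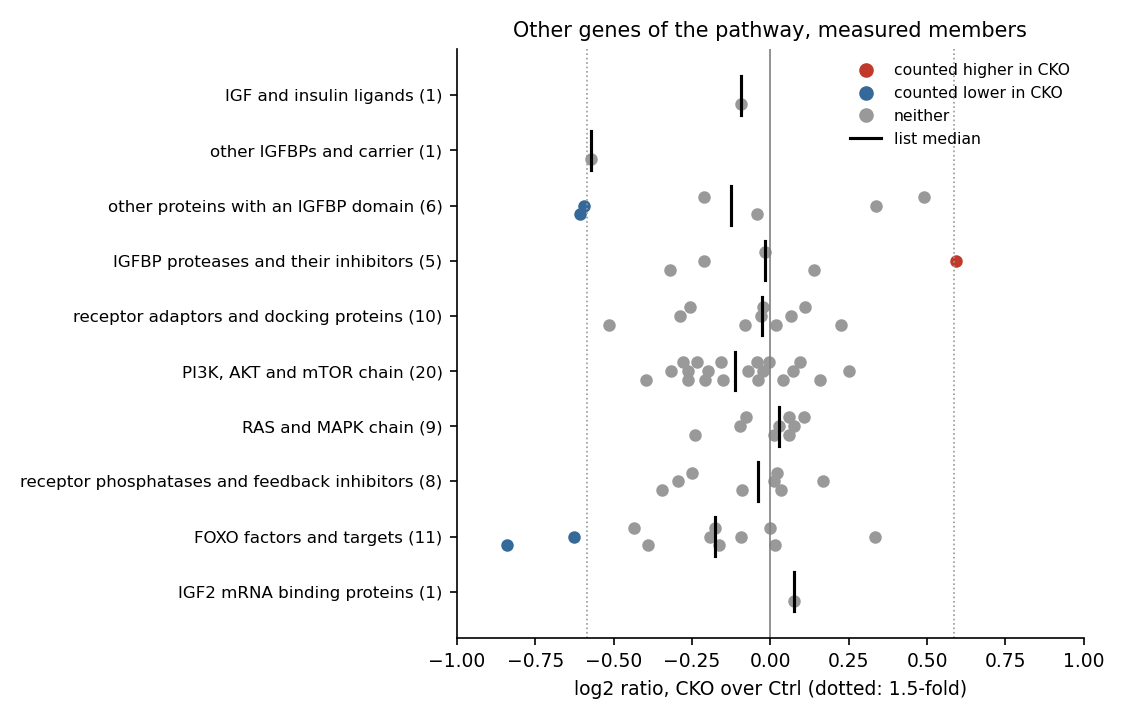
Log2 ratio of CKO over Ctrl for the measured genes of 10 pathway lists (number measured in brackets), with list medians as black bars and the 1.5-fold lines dotted. The points counted as lower are Foxo3, Sesn3, Htra3 and Kazald1, and the point counted as higher is Mmp2.

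Markers were set beside these genes because binding proteins are also made by other mammary cells, and in bulk RNA fewer cells of a type and less RNA per cell cannot be told apart. Luminal markers were abundant, with Krt18 at 10398 FPKM in CKO and 6607 in Ctrl, Krt8 at 4476.23 and 3871.08, and 1 of 8 higher. Over all measured genes 2.29% were called 1.5-fold higher and 3.04% lower, to be set beside the count of each marker list. Of 10 measured basal myoepithelial markers 8 were higher and 1 lower. The lower one was Trp63, at 1.05 FPKM in CKO and 2.96 in Ctrl, a log2 ratio of -1.16 (-1.98 to -1.05). The list's summed FPKM was 305.49 in CKO and 167.98 in Ctrl, a ratio of 1.82. Its most abundant genes were Krt14 (90.79 and 44.49 FPKM), Acta2 (66.72 and 33.68), Krt17 (50.59 and 30.66) and Tagln (46.9 and 26.92), given as CKO and then Ctrl. Igfbp3, Igfbp7 and, on few reads, Igfbp2 thus lay in the same direction as the 8 higher basal markers. Igfbp5 lay in the other direction, as did Trp63. The part of basal cells in these ratios was not tested. Endothelial and pericyte markers summed to 37.78 FPKM in CKO and 35.76 in Ctrl with 0 of 7 measured past 1.5-fold, and fibroblast markers to 43.66 and 41.18 with 0 of 4. Most of the fibroblast sum was Dcn, at 30.74 FPKM in CKO and 25.57 in Ctrl. Below a mean of 1 FPKM, Pdgfra (0.31 in CKO and 1.05 in Ctrl) and Lum (0.38 and 1.16) were lower, with intervals that left out a ratio of 1. The intervals of Pdgfrb and Fbln1, also below that mean, held a ratio of 1. Hormone-sensing markers had 1 higher and 1 lower of 9, and progenitor and alveolar markers 0 higher and 1 lower of 8. Myeloid markers summed to 21.45 FPKM in CKO and 17.38 in Ctrl with 0 of 5 past 1.5-fold. Adipocyte markers summed to 79.42 FPKM in CKO and 59.29 in Ctrl, a ratio of 1.34. Of the 3 measured 0 were higher and 1 was lower (Pparg, at 0.59 FPKM in CKO and 1.43 in Ctrl), while Fabp4 and Lipe had log2 ratios of 0.40 and 0.50, and Adipoq and Lep are not listed. Of 6 lymphocyte markers 0 were measured, they summed to 1.10 FPKM in CKO and 1.53 in Ctrl, and Cd3e and Nkg7 were at 0 reads in CKO.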

How the data were processed

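RNA of sorted luminal cells was sequenced as 1 low-input library per group on an Illumina HiSeq. The submitters' processing notes name HISAT, Bowtie2, RSEM and mm10, without versions. The authors deposited 1 expression column per library with no unit in the header. These deposited values are FPKM: times length in kilobases they sum to 999909 in CKO and 999609 in Ctrl. They have a floor of 0.01, taken as no reads. The deposited log2 fold change equals the log2 FPKM ratio, and the deposited p-value and false discovery rate are the authors' own for CKO against Ctrl. With 1 library per group no test between conditions was made here. Intervals and the p-value computed for Igfbp2 compare the reads of these libraries.

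The library share and depth used to estimate reads per gene were fitted to the deposited p-values. These p-values follow a Poisson test (2 times the smaller tail of reads in CKO given Ctrl). Of 641 genes at the floor in Ctrl 620 gave whole reads within 0.02, and of 845 at the floor in CKO 798 did. The share of CKO in all reads was 0.4779. Depth was set where most genes with 20 to 200 reads matched their deposited p-value within 0.0001 of it, 1105 of 3335. Estimated reads were FPKM times kilobases times depth, rounded. The method was tested on simulated data, where FPKM followed from Poisson reads and the listed length. The simulation thus did not cover genes, such as Igfbp2, whose FPKM-based reads do not give the deposited p-value. Among genes with 20 to 200 reads these were the majority, as 1105 of 3335 matched.

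Symbols stored as dates were restored for 23 genes, and 16796 gene identifiers matched RefSeq (GRCm38.p6) and 110 did not. Genes named were the 10 members, every listed ligand and binding protein, up to 4 measured genes of each of 10 pathway lists by the interval bound nearest to 0, and markers from the 4 most abundant of each of 9 lists. Pappa, Nkg7, Trp63, Pdgfra, Lum, Pdgfrb and Fbln1 were named after their values were seen. A gene that the rule names is not reported here. Members and lists were chosen with earlier results of these data known. With 1 library per group no gene was sought for a pattern like that of a member. Alternatives were pseudocounts, centring, scaling, minimum levels, implied reads and reads not divided by length. Python 3.11.15, numpy 2.4.6, pandas 2.3.3, scipy 1.17.1 and matplotlib 3.10.9 were used.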

Additional observations from a re-analysis of the deposited data

How the results depend on the processing

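The log2 ratios of the 10 genes were recomputed 50 times, with a pseudocount of 0.1 or 1 FPKM, median centring, trimmed mean of M-values scaling and the reads implied by the deposited p-values. All 50 kept their direction, but the settings could not have changed it. A pseudocount cannot turn a ratio round, and implied reads were sought only on the side of the FPKM ratio. The shifts taken off by centring and scaling, -0.012 and -0.040, were smaller in size than every ratio of the 10 genes. Of the 50 ratios, 49 moved by less than their counting interval allows, and that of Igfbp5 became -0.46 with trimmed mean scaling. With the implied reads 1 gene, Igfbp3, and not Igfbp2, was counted as 1.5-fold higher. Igfbp5 held 93.4% of the binding protein sum in CKO and 97.0% in Ctrl when reads were not divided by length, which favours its long transcript. Over the pathway lists 0 genes were higher and 2 lower with a pseudocount of 1 FPKM, 2 were lower with trimmed mean scaling, and 2 were higher with no minimum level. Over all genes 58 were 2-fold higher and 31 lower, but 110 and 91 with a minimum of 1 FPKM and 139 and 125 with none. The cause of these shifts was not tested, beyond the larger number of weakly expressed genes counted under lower minimums. No paired analysis was possible because there was 1 library per group, and no library could be left out. Depth limits Igfbp2 most, with about 39 reads in CKO and 22 in Ctrl.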
